A study of Homo sapiens with 6 samples.

Results

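The genes described here are 10 receptors of the TGF-beta family, TGFBR1, TGFBR2, TGFBR3, ACVR1, ACVR1B, ACVR2A, ACVR2B, BMPR1A, BMPR1B and BMPR2. They were taken by symbol from a deposited RNA-seq table of 19960 genes, where each has 1 row. The labels give the cells as MKN28, a human line used as a gastric cancer model; cell line registers list MKN28 as misidentified, and the identity of these cells was not examined here. Stable cells that express a short hairpin RNA against LTBP1 (shLTBP1, 3 libraries) were compared with stable cells that carry the control plasmid shSCR (3 libraries), both kept in the same serum-containing medium, which bears on what depletion of LTBP1 does to RNA levels. LTBP1 is a matrix protein that holds latent TGF-beta. The labels name 1 hairpin plasmid per group and are silent on whether cultures or transductions were independent; p-values here cover only library-to-library spread, possibly technical.

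Receptors of this family are transmembrane serine/threonine kinases that work in complexes of type I and type II chains. A ligand brings both together, the type II kinase phosphorylates the type I chain, and the type I kinase phosphorylates SMAD proteins, which move to the nucleus. TGFBR1 and ACVR1B act through SMAD2 and SMAD3, whereas BMPR1A, BMPR1B and, with BMP ligands, ACVR1 act through SMAD1, SMAD5 and SMAD9. In gastric epithelium the TGF-beta branch is best known for restraining growth, and receptor mutations occur in gastric cancers.

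All values are the authors' DESeq2-normalized read counts, called normalized counts below, which summed to between 30479879 and 30941103 per library. LTBP1 had 59.0, 66.7 and 49.0 normalized counts in the shLTBP1 libraries, against 977, 964 and 1011 in the shSCR libraries, a log2 fold change of -4.07 (SE 0.12). All shLTBP1 libraries were far below all shSCR libraries for LTBP1, the gene that the labels name as the target of the hairpin. A two-sided exact permutation test over 3 against 3 libraries cannot go below p = 0.1 and gave 0.1. Log2 fold changes below are shLTBP1 over shSCR on the scale log2(normalized count + 1), with their standard error (SE) and an adjusted p from limma over all 12789 genes with a mean of at least 10. The epithelial markers were present: 7 of 7 were tested, and their summed normalized counts ran from 298420 to 322647 in shLTBP1 and from 334632 to 355279 in shSCR, with CLDN4 and KRT19 higher (log2 fold changes of 0.27 and 0.22) and EPCAM and CDH1 lower (-1.12 and -0.34). The defining stomach markers were not: TFF2, MUC6, GKN1 and CLDN18 were at 0 in all 6 libraries and the 6 markers summed to at most 2.12 in a shLTBP1 library and 4.63 in a shSCR library. Fibroblast markers summed to between 710 and 936 in shLTBP1 and between 1108 and 1342 in shSCR, mostly COL1A1, which fell by 0.60 on the log2 scale; THY1 was at 0 throughout, and LUM had 41.5, 52.0 and 36.6 in shLTBP1 and 0 in all shSCR libraries. Endothelial markers summed to between 23.9 and 30.5 in shLTBP1 and between 35.6 and 51.2 in shSCR, with CLDN5 at 0. Blood markers summed to between 614 and 727 in shLTBP1 and between 343 and 1318 in shSCR; CD68 rose by 0.87 on the log2 scale, PTPRC was at most 0.738, and in shSCR replicate 3 the globin genes HBA1 and HBB reached 803 and 132. Among the epithelial markers, EPCAM lies on chromosome 2, where the median log2 fold change of the tested genes was -0.56. The part of the markers in the receptor results was not tested.

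Lower RNA levels in shLTBP1 were found for 6 of the receptor genes and a higher level for 1. BMPR2, ACVR2A, ACVR1, ACVR2B, TGFBR3 and ACVR1B fell, to between 53.0% and 77.5% of the shSCR mean, and TGFBR2 rose to 112% of it. TGFBR1 and BMPR1A did not pass the test, and BMPR1B was below the minimum mean. Of the 9 members tested, 6 were thus called lower and 1 higher at a limma adjusted p of 0.05; of all 12789 genes tested, 53.1% were called, 26.8% lower and 26.3% higher. Groups were free of overlap for 7 of the 9, against 60.8% of all tested genes; 6 of these members were lower, against 30.6% of all tested genes, and 1 was higher, against 30.2%. The median log2 fold change was -0.54 over the 9 members and 0.0038 over all tested genes. Over the 6 tested members that do not lie on chromosome 2, of which 3 were called lower and 1 higher, the median was -0.16. In bulk RNA, fewer cells that express a gene and less RNA per cell cannot be told apart. Of the 6 genes that fell, 3, BMPR2, ACVR2A and ACVR1, lie on chromosome 2, where 88.8% of 852 tested genes had a log2 fold change below 0 and the median was -0.56; the values set against this background are given further on.

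**Figure D1:**
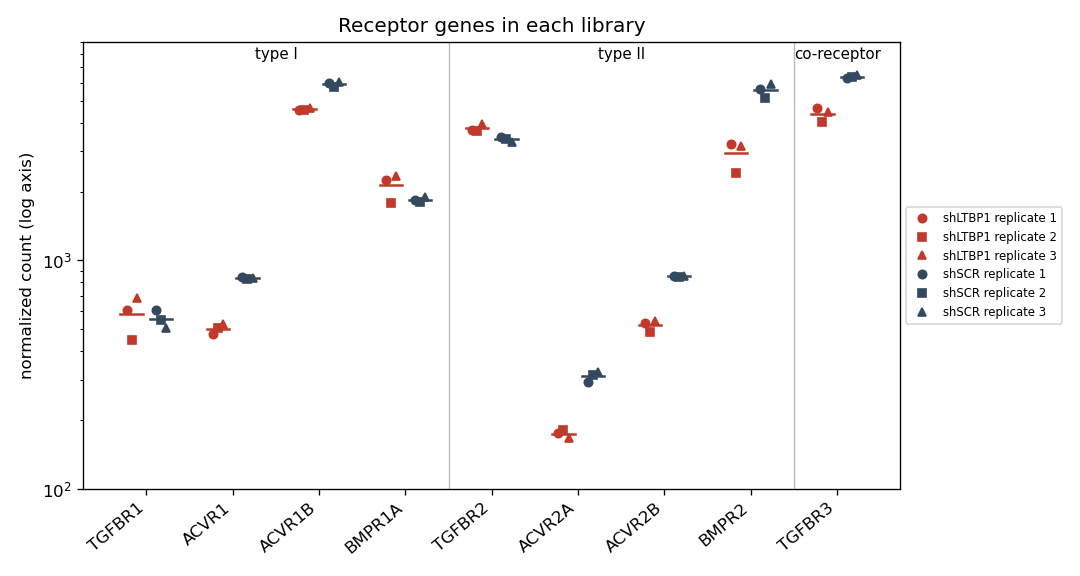
Normalized count (log axis) of each tested receptor gene in every library, shLTBP1 in red to the left of shSCR in dark blue; each symbol is 1 replicate and the line is the mean of 3. The groups are apart for ACVR1, ACVR1B, TGFBR2, ACVR2A, ACVR2B, BMPR2 and TGFBR3 and overlap for TGFBR1 and BMPR1A, where shLTBP1 replicate 2 is the lowest of its group.

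The promoter sequences of BMPR2, with the largest fall, of ACVR2A, next to it in size of fall, of ACVR2B and ACVR1B, which fell and lie off chromosome 2, and of TGFBR2, the gene that rose, are shown for comparison. Each is the 250 bases before the first transcription start that RefSeq lists on GRCh38.p14, 5′ to 3′ on the strand of the gene. By GENCODE positions, the ACVR2A window lies wholly past the start of its gene. The ACVR2B and ACVR1B windows reach past theirs in part. Capitals mark every match, on either strand, to CAGAC, the SMAD box, to GGCGCC, a GC-rich site that SMADs also bind, to GGGCGG, the GC box of SP1, to CCAAT or to TATAAA; matches can adjoin or overlap, and GGCGCC and GGGCGG adjoin once in ACVR1B.
BMPR2, chr2:202376077-202376326, plus strand: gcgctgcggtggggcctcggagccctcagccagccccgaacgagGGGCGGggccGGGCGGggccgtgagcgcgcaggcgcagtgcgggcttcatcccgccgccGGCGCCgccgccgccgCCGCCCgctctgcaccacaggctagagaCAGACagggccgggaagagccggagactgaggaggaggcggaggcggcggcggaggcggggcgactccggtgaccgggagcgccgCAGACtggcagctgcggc
ACVR2A, chr2:147844779-147845028, plus strand: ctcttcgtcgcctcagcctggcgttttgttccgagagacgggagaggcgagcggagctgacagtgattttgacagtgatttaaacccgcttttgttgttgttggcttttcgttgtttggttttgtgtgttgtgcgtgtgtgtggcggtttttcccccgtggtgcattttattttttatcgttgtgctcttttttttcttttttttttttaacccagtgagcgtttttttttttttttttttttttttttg
ACVR2B, chr3:38453640-38453889, plus strand: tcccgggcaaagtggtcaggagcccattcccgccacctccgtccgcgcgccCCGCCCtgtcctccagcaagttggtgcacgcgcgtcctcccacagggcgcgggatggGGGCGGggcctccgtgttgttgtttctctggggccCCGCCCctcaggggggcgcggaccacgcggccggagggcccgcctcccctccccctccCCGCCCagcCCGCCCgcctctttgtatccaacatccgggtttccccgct
ACVR1B, chr12:51951449-51951698, plus strand: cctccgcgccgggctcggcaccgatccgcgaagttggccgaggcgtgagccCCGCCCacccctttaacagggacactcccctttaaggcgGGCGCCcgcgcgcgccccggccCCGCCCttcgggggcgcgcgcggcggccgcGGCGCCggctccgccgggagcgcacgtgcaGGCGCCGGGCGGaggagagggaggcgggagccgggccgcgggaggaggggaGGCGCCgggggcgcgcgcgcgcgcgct
TGFBR2, chr3:30606106-30606355, plus strand: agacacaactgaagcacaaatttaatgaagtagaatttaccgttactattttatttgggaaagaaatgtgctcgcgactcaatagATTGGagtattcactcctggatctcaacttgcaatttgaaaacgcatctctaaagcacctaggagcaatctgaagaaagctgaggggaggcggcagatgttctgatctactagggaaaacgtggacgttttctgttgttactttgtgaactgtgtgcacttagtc
The share of G and C in the windows varied among members that changed in the same direction. Among the genes that fell it was 79.2% for BMPR2, 40.8% for ACVR2A, 75.2% for ACVR1, 74.0% for ACVR2B, 73.6% for TGFBR3 and 82.8% for ACVR1B. It was also 40.8% for TGFBR2, which rose, and 79.6% for TGFBR1 and 47.2% for BMPR1A, which did not pass the test, against a median of 58% over 27303 promoters. RefSeq lists 8 starts for TGFBR1, 3 each for ACVR1 and BMPR1B, and 2 each for TGFBR2 and ACVR1B. Other windows exist for these genes. By GENCODE positions, the windows used for TGFBR1 and TGFBR3 also lie wholly past the start of their genes. BMPR2 held CAGAC 2 times, GGCGCC 1 time and GGGCGG 3 times. ACVR1B held GGCGCC 4 times and GGGCGG 3 times, ACVR2B held GGGCGG 5 times, TGFBR2 held 1 CCAAT box and no other motif, and ACVR2A held none of the 5. All 10 members matched a promoter in the table. CAGAC was found in 3 of the 10 and in 37.8% of all promoters, GGCGCC in 3 and in 16.1%, GGGCGG in 5 and in 42.3%, CCAAT in 4 and in 33.0%, and TATAAA in 1, BMPR1A, and in 11.1%. These matches describe letters in the windows and carry no statement on binding.

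Among the type II receptors, which bind the ligand and start the signal, TGFBR2 rose and the other 3 members fell. TGFBR2 binds TGF-beta itself and recruits TGFBR1. It had 3729, 3675 and 3940.1 normalized counts in the shLTBP1 libraries, against 3451, 3413 and 3297 in the shSCR libraries. Every shLTBP1 library was above every shSCR library, by a small margin. The mean was 3781 ± 140 in shLTBP1 and 3387 ± 80.2 in shSCR (SD, n = 3 each), with a log2 fold change of 0.16 (SE 0.05, limma adjusted p = 0.0189). Without shLTBP1 replicate 3 the limma adjusted p was 0.0567 (log2 fold change 0.13), and without shSCR replicate 3 it was 0.0749 (0.14); over all alternatives it ran from 0.000809 to 0.157.

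BMPR2, the type II receptor dedicated to BMP and GDF ligands, had 3219.6, 2421 and 3175 normalized counts in shLTBP1, against 5605, 5132 and 5901 in shSCR. Replicate 2 was the lowest library of each group, yet the highest shLTBP1 value stayed far under the lowest shSCR value. The mean was 2939 ± 449 in shLTBP1 and 5546 ± 388 in shSCR (SD, n = 3 each) and the log2 fold change was -0.93 (SE 0.10, limma adjusted p = 4.78e-05). Of all tested genes, 5.47% had a lower log2 fold change.

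ACVR2A and ACVR2B are the type II receptors of activins and also serve BMPs, GDF11 and myostatin. ACVR2A had 175, 179.7 and 167 normalized counts in shLTBP1, against 293, 315 and 325 in shSCR. The groups were well apart, with a mean of 174 ± 6.55 in shLTBP1 and 311 ± 16.5 in shSCR (SD, n = 3 each), and the log2 fold change was -0.84 (SE 0.10, limma adjusted p = 6.54e-05). Exons of ACVR2A overlap exons of ORC4 and of an antisense gene on the opposite strand, and without a stated strand setting for the counting its values are uncertain. ORC4 had 1542, 1088 and 1301 normalized counts in shLTBP1, against 1819, 1861 and 1830 in shSCR. ACVR2B had 533, 487 and 542 normalized counts in shLTBP1, against 852, 848 and 857 in shSCR. The shSCR libraries were nearly equal, with a coefficient of variation of 0.558%, and all shLTBP1 libraries lay far beneath them. The log2 fold change was -0.71 (SE 0.07, limma adjusted p = 2.03e-05).

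Among the type I receptors, which pass the signal to SMADs, ACVR1B and ACVR1 fell, TGFBR1 and BMPR1A did not pass the test, and BMPR1B was hardly detected. ACVR1B, the type I receptor of activin and nodal, had 4570.2, 4556 and 4622 normalized counts in shLTBP1, against 5972, 5753 and 6018 in shSCR. Both groups were tight and did not overlap. The mean was 4583 ± 35.1 in shLTBP1 and 5914 ± 142 in shSCR (SD, n = 3 each) and the log2 fold change was -0.37 (SE 0.04, limma adjusted p = 5.62e-05).

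ACVR1, a type I receptor that takes BMP ligands and can also bind activins, had 476, 503 and 525 normalized counts in shLTBP1, against 846, 831 and 839 in shSCR. The groups did not overlap, with a mean of 501 ± 24.7 in shLTBP1 and 839 ± 7.58 in shSCR (SD, n = 3 each). Its log2 fold change was -0.74 (SE 0.07, limma adjusted p = 1.34e-05).

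TGFBR1, the partner of TGFBR2 and the type I receptor of TGF-beta, had 608, 449 and 685 normalized counts in shLTBP1, against 608, 549.8 and 505 in shSCR. The shLTBP1 values enclosed the shSCR values, since replicate 2 was the lowest and replicate 3 the highest of all 6. The log2 fold change was 0.05, with a 95% interval from -0.27 to 0.37 (SE 0.14, limma adjusted p = 0.793), which leaves the direction undetermined.

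BMPR1A, a type I receptor of BMP ligands, had 2255, 1779 and 2342 normalized counts in shLTBP1, against 1841, 1791 and 1895 in shSCR. Replicates 1 and 3 of shLTBP1 were above all shSCR libraries and replicate 2 was beneath them. The log2 fold change was 0.20 (SE 0.09, 95% interval -0.01 to 0.41, limma adjusted p = 0.105). Without shLTBP1 replicate 2 it was 0.32 (limma adjusted p = 0.000925). For BMPR1A the limma adjusted p ran from 0.000644 to 0.314 over the alternatives. BMPR1B (ENSG00000138696, chr4:94757968-95158448, plus strand), its close relative, had 0, 0 and 0.695 normalized counts in shLTBP1, against 0.627, 0 and 1.80 in shSCR. No fold is given at such levels, and a difference was not detectable in these values.

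The library shLTBP1 replicate 2 stood beneath the other libraries of its group at several members. Its log2 deviation from shLTBP1 replicates 1 and 3 was -0.52 for TGFBR1, -0.40 for BMPR2, -0.37 for BMPR1A and -0.16 for TGFBR3, against -0.0046 as the median of all tested genes. Transcripts of BMPR2 and BMPR1A are long, 11461 and 11255 bases in GENCODE, with 37.6% and 40.6% G and C. The transcript of ACVR2B is longer, 11821 bases with 45.7% G and C, and its deviation was -0.14. The transcript of TGFBR1, the member with the largest deviation, has 6516 bases and 38.95% G and C. For ACVR2A, with 5728 bases and 38.7% G and C, this library was the highest of its group, with a deviation of 0.07. Over the 1253 tested genes among both the longest 25% of transcripts and the lowest 25% of GC content, the median deviation of this library was -0.14, and it was 0.04 for shLTBP1 replicate 1 and 0.09 for replicate 3. Between the groups, the median log2 fold change of these 1253 genes was -0.14. The part of transcript length and GC content in the deviations of this library and in the fold changes was not tested. With trends of GC content and length removed library by library, an alternative chosen after seeing the data, BMPR1A was called higher, at 0.42 on the log2 scale (limma adjusted p = 0.000644), and TGFBR1 was at 0.20 (limma adjusted p = 0.201). BMPR2 was at -0.68 under that alternative and kept its call (limma adjusted p = 6.53e-05). ACVR2B was at -0.47 and TGFBR3 at -0.40, nearer to 0 than as tested, and both kept their calls (limma adjusted p = 0.000111 and 3.84e-05). ACVR1 hardly moved, at -0.75 (limma adjusted p = 8.96e-06).

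TGFBR3, or betaglycan, is a co-receptor without kinase activity that presents TGF-beta to TGFBR2 and binds inhibin. It had 4628, 4052 and 4448 normalized counts in shLTBP1, against 6287, 6347 and 6476 in shSCR. Every shLTBP1 library was lower, with a mean of 4376 ± 295 in shLTBP1 and 6369.9 ± 97.0 in shSCR (SD, n = 3 each). The log2 fold change was -0.54 (SE 0.05, limma adjusted p = 2.40e-05). The ratio of TGFBR3 to TGFBR2 normalized counts was 1.16 ± 0.07 in shLTBP1 and 1.88 ± 0.07 in shSCR (SD, n = 3 each).

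To compare levels between genes, normalized counts were divided by the length of the longest protein-coding transcript of each gene in GENCODE, in kilobases. In shLTBP1 the order was ACVR1B with 1004 ± 7.69 normalized counts per kilobase, TGFBR2 with 818 ± 30.3, TGFBR3 with 677 ± 45.6, BMPR2 with 256 ± 39.2, BMPR1A with 189 ± 26.9, ACVR1 with 164 ± 8.12, TGFBR1 with 89.1 ± 18.5, ACVR2B with 44.0 ± 2.51, ACVR2A with 30.3 ± 1.14 and BMPR1B with 0.04 ± 0.07 (SD, n = 3). Of these neighbours in the order, BMPR1A and ACVR1 overlapped between libraries. In shSCR the order was ACVR1B with 1296 ± 31.1 normalized counts per kilobase, TGFBR3 with 985 ± 15.01, TGFBR2 with 733 ± 17.4, BMPR2 with 484 ± 33.9, ACVR1 with 275 ± 2.49, BMPR1A with 164 ± 4.61, TGFBR1 with 85.04 ± 7.88, ACVR2B with 72.1 ± 0.40, ACVR2A with 54.3 ± 2.89 and BMPR1B with 0.145 ± 0.164 (SD, n = 3), and no neighbours overlapped. TGFBR2 thus stood above TGFBR3 in shLTBP1 and beneath it in shSCR, and the mean of BMPR1A stood above that of ACVR1 in shLTBP1, with overlapping libraries, and beneath it in shSCR. With the merged length of all exons of a gene, TGFBR2 overlapped ACVR1B in shLTBP1 and TGFBR3 in shSCR, and BMPR2 overlapped BMPR1A in shLTBP1 while BMPR1A and ACVR1 were apart; the ranks were the same.

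Within the type II class the share of TGFBR2 was larger in shLTBP1 and that of BMPR2 smaller, without overlap between libraries. Summed over the type II members, the level per kilobase was 1163, 1079 and 1205 in shLTBP1, against 1359, 1313 and 1358 in shSCR. TGFBR2 supplied 69.4%, 73.7% and 70.8% of it in shLTBP1, against 55.0%, 56.2% and 52.6% in shSCR. The share of BMPR2 was 24.1%, 19.6% and 23.0% in shLTBP1, against 36.0%, 34.1% and 37.9% in shSCR. The activin receptors ACVR2A and ACVR2B together were the small remainder in both groups, with smaller shares in shLTBP1. For ACVR2A the share was 2.65% ± 0.25 in shLTBP1 and 4.04% ± 0.25 in shSCR. For ACVR2B it was 3.83% ± 0.035 in shLTBP1 and 5.37% ± 0.083 in shSCR (SD, n = 3 each). Summed over the type I members the level per kilobase was 1451, 1390.3 and 1499 in shLTBP1, against 1843, 1777 and 1840.4 in shSCR. ACVR1B made up 67.6% to 71.8% of it in shLTBP1 and 70.9% to 71.7% in shSCR. The share of BMPR1A was 13.02% ± 1.43 in shLTBP1 and 8.99% ± 0.140 in shSCR, and that of ACVR1 was 11.4% ± 0.567 in shLTBP1 and 15.1% ± 0.200 in shSCR (SD, n = 3 each). Within the pair of BMP receptors, the ratio of BMPR1A to BMPR2 normalized counts was 0.7005, 0.735 and 0.738 in shLTBP1, against 0.328, 0.349 and 0.321 in shSCR. The ratio of TGFBR1 to TGFBR2 normalized counts was 0.153 ± 0.027 in shLTBP1 and 0.163 ± 0.012 in shSCR (SD, n = 3 each), within the spread between libraries. Sums, shares and ratios are descriptions of genes that were chosen together, and were given no test. They use levels from which no chromosome or neighbour median was subtracted. BMPR2, ACVR2A and ACVR1 lie on chromosome 2, where the median log2 fold change was -0.56. The part of that background in the sums, shares and ratios was not tested.

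**Figure D2:**
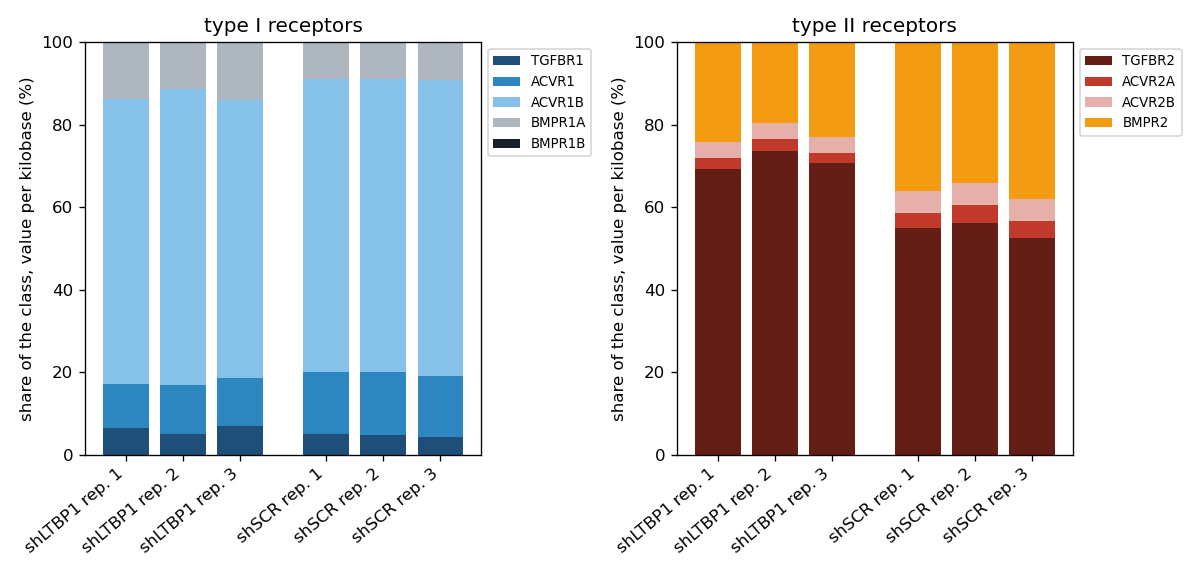
Share of each member in the summed level per kilobase of the type I members (left panel) and the type II members (right panel), in percent, with 1 bar per library and the shLTBP1 libraries to the left of the shSCR libraries. TGFBR2 fills 69.4% to 73.7% of the type II bars in shLTBP1 and 52.6% to 56.2% in shSCR, and the BMPR2 segment is smaller in shLTBP1. BMPR2, ACVR2A and ACVR1 lie on chromosome 2, and no chromosome median was subtracted here.

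Members differed in how far they stood apart from the genes around them. The 50 tested genes around each member, 25 on each side, were taken as its surroundings (GENCODE release 29, GRCh38). Those of ACVR2A and ACVR1 share many genes and each include the other member, and those of TGFBR2 and ACVR2B also share many genes. The medians within each pair are thus not separate backgrounds. BMPR2 (ENSG00000204217, chr2:202376936-202567751, plus strand) had neighbours with a median log2 fold change of -0.69, of which 42 were called lower and 1 higher. ACVR2A (ENSG00000121989, chr2:147844517-147930826, plus strand) had a neighbour median of -0.68, with 43 called lower. For ACVR1 (ENSG00000115170, chr2:157736444-157875862, minus strand) the neighbour median was -0.54, with 37 called lower. The neighbour median was also subtracted in each library; taken over levels in this way, its difference between the groups can depart somewhat from the median of the fold changes. After this subtraction BMPR2 stood at -0.24 (limma adjusted p = 0.0654), ACVR2A at -0.21 (limma adjusted p = 0.122) and ACVR1 at -0.19 (limma adjusted p = 0.0456). With the median of the whole chromosome subtracted instead, BMPR2 was at -0.35 (limma adjusted p = 0.0139), ACVR2A at -0.26 (limma adjusted p = 0.0501) and ACVR1 at -0.17 (limma adjusted p = 0.0637). LTBP1 also lies on chromosome 2, and it was at -3.48 with its neighbour median subtracted (limma adjusted p = 2.18e-08). The part of a whole-chromosome difference between the 2 stable cell populations in the falls of BMPR2, ACVR2A and ACVR1 was not tested.

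The 3 genes that fell and lie on other chromosomes stood apart from their surroundings. ACVR2B (ENSG00000114739, chr3:38453851-38493142, plus strand) had a neighbour median of -0.06, and 2 of its 50 neighbours had a lower log2 fold change than its own. With the neighbours subtracted it was at -0.59 (limma adjusted p = 6.36e-05). ACVR1B (ENSG00000135503, chr12:51951667-51997078, plus strand) had 18 neighbours called higher and 6 called lower; 3 of its 50 neighbours had a lower log2 fold change, the neighbour median was 0.13, and with the neighbours subtracted it was at -0.49 (limma adjusted p = 1.25e-05). TGFBR3 (ENSG00000069702, chr1:91680343-91906335, minus strand) had a neighbour median of -0.02 and was at -0.50 with the neighbours subtracted (limma adjusted p = 2.15e-05).

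TGFBR1 (ENSG00000106799, chr9:99104038-99154192, plus strand) lay among genes that were mostly higher, 34 of 50 called higher and 7 called lower, with a median of 0.43. With the neighbours subtracted its log2 fold change was -0.40 (limma adjusted p = 0.0211), whereas with the chromosome 9 median of 0.18 subtracted it was -0.13 (limma adjusted p = 0.471). TGFBR2 (ENSG00000163513, chr3:30606502-30694142, plus strand) had a neighbour median of -0.06 and was at 0.24 after its subtraction (limma adjusted p = 0.00184), but at 0.08 with the chromosome 3 median of 0.08 subtracted (limma adjusted p = 0.157). BMPR1A (ENSG00000107779, chr10:86756601-86932838, plus strand) had a neighbour median of 0.02 and did not pass after either subtraction (0.22 and 0.18, limma adjusted p = 0.0852 and 0.134).

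**Figure D3:**
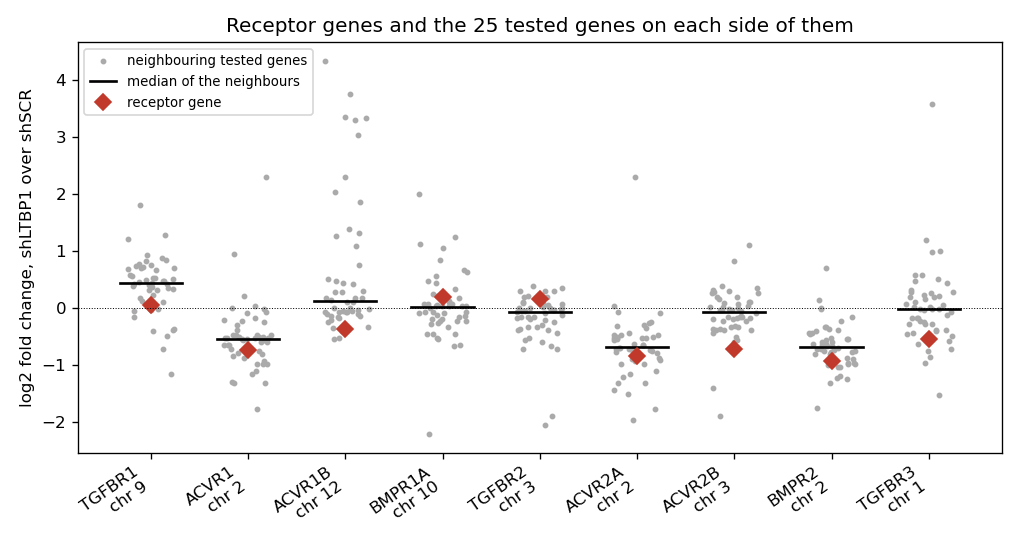
Log2 fold change, shLTBP1 over shSCR, of each tested receptor gene (red diamond) and of the 25 tested genes on each side of it (grey points, median as a black line). BMPR2, ACVR2A and ACVR1 sit near the neighbour medians of -0.69, -0.68 and -0.54 on chromosome 2, whereas ACVR2B, ACVR1B and TGFBR3 lie under most of their neighbours and TGFBR1 lies under a raised median of 0.43.

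**Figure D4:**
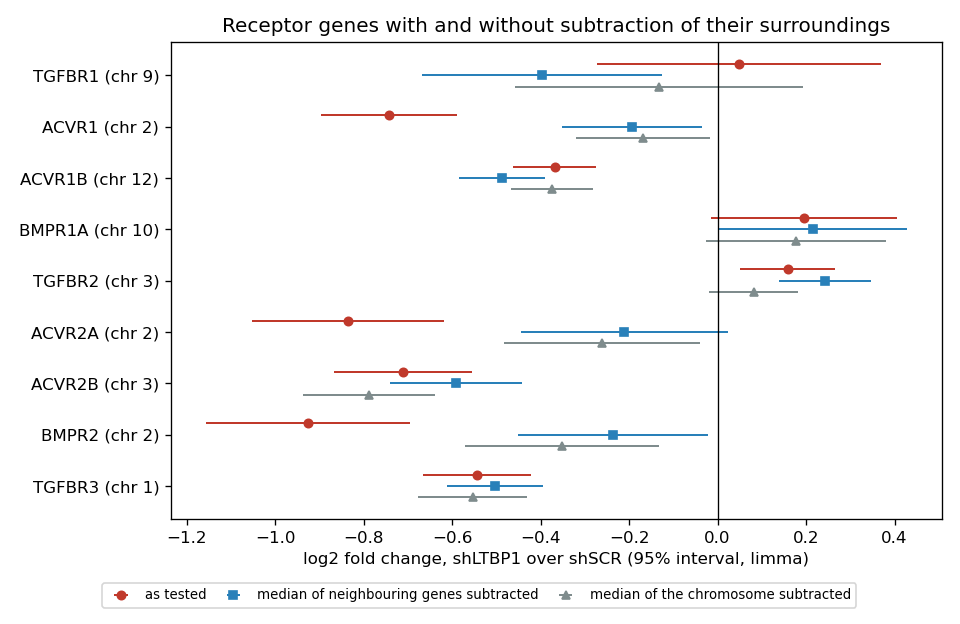
Log2 fold change, shLTBP1 over shSCR, of each tested receptor gene with its 95% interval from limma, as tested (red circles), after subtracting the neighbour median (blue squares) and after subtracting the chromosome median (grey triangles). The 3 genes of chromosome 2 lie between -0.93 and -0.74 as tested and between -0.35 and -0.17 after either subtraction, and ACVR1B, ACVR2B and TGFBR3 stay under 0 in all 3 forms.

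A further 3 type I and type II receptors of the family were examined. ACVR1C, a type I receptor of nodal and activins on chromosome 2, had 111, 141 and 120 normalized counts in shLTBP1, against 251, 301 and 281 in shSCR, which amounts to -1.16 on the log2 scale (SE 0.13, limma adjusted p = 4.55e-05) where its neighbours had a median of -0.55. ACVRL1, a receptor of BMP and TGF-beta ligands best known in endothelium, had 32.5 ± 7.62 normalized counts in shLTBP1 and 28.0 ± 17.2 in shSCR (SD, n = 3 each) and did not pass (limma adjusted p = 0.489). AMHR2, the receptor of anti-Mullerian hormone, was at 0 in all libraries.

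Of 11 co-receptors and decoys, 6 were tested, 3 rose, 2 fell and 1 did not pass (median log2 fold change 0.12, against 0.0038 over all tested genes). BAMBI, a pseudoreceptor without a kinase, rose to 3316 ± 31.8 normalized counts in shLTBP1, against 1123 ± 30.2 in shSCR (SD, n = 3 each; limma adjusted p = 1.55e-08), and the semaphorin receptor NRP1 by 1.095 on the log2 scale. NEO1, the receptor of RGM proteins, and ENG, a co-receptor best known in endothelium, were lower, at -0.28 and -0.17 on that scale. Of 19 intracellular regulators of the receptors, all tested, 5 rose, 8 fell and 6 did not pass (median -0.12). SMAD6, which blocks type I BMP receptors, and PPP1R15A, which with SMAD7 recruits a phosphatase to TGFBR1, rose by 2.94 and 0.9998 on the log2 scale. PMEPA1, an inhibitor of SMAD signalling, was at -2.06 and the ubiquitin ligase SMURF2 at -0.99 on that scale, both lower. Of the 6 receptor-activated and common SMADs, SMAD9 and SMAD1 rose by 3.23 and 0.99, SMAD3 fell by 1.16 on the log2 scale, and SMAD2, SMAD4 and SMAD5 did not pass (median 0.03).

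Ligand genes were tested in smaller part, since many were hardly detected. Of 15 genes in a list of TGF-beta, activin and nodal ligands that also held INHA, LEFTY1 and LEFTY2, 6 were tested, INHA among them. Of the 6, 0 rose, and TGFB1 and GDF11 were lower, at -0.92 and -0.31 on the log2 scale (median of the 6, -0.26). Of 17 genes in a list of BMP and GDF ligands that also held AMH, 7 were tested and 3 rose. These were BMP4 and BMP2, by 2.34 and 2.31 on the log2 scale, and AMH, by 0.75. BMP8B, whose reads may be shared with its close copy BMP8A, fell by 0.86 (median of the 7, -0.02). Of 13 secreted antagonists, 5 were tested, 3 rose and 1 fell (median 0.25). CHRD, which sequesters BMPs, rose to 158 ± 14.6 normalized counts in shLTBP1, against 26.0 ± 14.01 in shSCR (SD, n = 3 each), FSTL3, which binds activins, rose by 0.53 on the log2 scale, and BMPER fell by 1.26. In every sentence on these lists, rose and fell refer to a limma adjusted p under 0.05 over all tested genes, of which 26.3% were called higher and 26.8% lower.

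The tested genes whose log2 values over the 6 libraries, centred on their mean, lay closest to those of TGFBR2 were CNIH1, MCL1 and VAPA, with root mean square distances of 0.010, 0.014 and 0.015. Those closest to BMPR2 were GPD2, STRN and NCOA1, all on chromosome 2, with distances of 0.051, 0.061 and 0.067.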

How the data were processed

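MKN28 cells gave 3 shLTBP1 and 3 shSCR libraries of total RNA, made with a directional kit per the labels. The submitters' processing notes name FastQC 0.10.1, STAR 2.7.3a, RSEM 1.3.1, DESeq2 (by the authors) and hg38. The annotation, strand setting and filters were not given in the sources used here. Each deposited value is a signal, a read count normalized by the authors with DESeq2 according to the deposited table's name. Of the low values, 35.6% to 37.2% per library were whole multiples, within 0.1 of a step, of the commonest value near 1, so reads were not recovered, no count test was run and depth is unknown.

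Genes with a mean of at least 10 were tested on log2(value + 1) with limma 3.58.1 (R 4.3.3; group as the only term, variance trend, two-sided, Benjamini-Hochberg over 12789 genes, threshold 0.05), after a check on simulated data. The added 1 makes fold changes of low genes smaller. Lengths and positions came from GENCODE release 29 (GRCh38, the assembly of hg38; 19872 of 19960 identifiers matched) and promoters from RefSeq. Neighbour and chromosome medians were taken, library by library, over log2 values centred on each gene's mean. The members and lists were chosen with earlier results of these data known. The text names all members, LTBP1, the 3 other receptors, up to 2 of the largest rises and falls per list, and the 3 genes closest in pattern to TGFBR2 and to BMPR2. HBA1, HBB, PTPRC, the markers at 0, ORC4, AMH, INHA, LEFTY1, LEFTY2 and the SMADs that did not pass were named after their values were seen.

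Alternatives were pseudocounts of 0.5 or 5; a minimum mean of 50 or none; TMM, upper quartile or quantile scaling; no variance trend; robust moderation; the replicate number as a block; each library left out; both subtractions; and, chosen after seeing the data, removal of trends in GC content and length by splines with 4 degrees of freedom.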

Additional observations from a re-analysis of the deposited data

How the results depend on the processing

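ACVR1B, ACVR2B, TGFBR3 and LTBP1 kept direction and call under all 19 alternatives run, with log2 fold changes from -0.49 to -0.33, -0.79 to -0.47, -0.59 to -0.40 and -4.17 to -3.48. ACVR1 lost its call with the chromosome median subtracted, BMPR2 with the neighbour median subtracted and ACVR2A with either; their surroundings on chromosome 2 have medians below 0. TGFBR1 was 0.05 as tested and -0.40 with the neighbour median subtracted. The number of receptor members called, 7, was 4 with the chromosome median subtracted and 6 to 8 with 1 library left out. The number called higher, 1, was 0 with the chromosome median subtracted, 2 with the replicate block, 2 after removal of GC content and length trends (chosen after seeing the data), and 0 to 2 with 1 library left out. It was 0 without shLTBP1 replicate 3 or shSCR replicate 3, where TGFBR2 lost its call, and 2 without shLTBP1 replicate 2, where BMPR1A gained one; the cause was not tested. The number called lower, 6, ran from 4 to 6, and calls over all tested genes, 6788, from 5828 to 6917. Whether equal replicate numbers pair the samples was not settled. Deviations from the group means of same-numbered libraries had correlations of -0.0093, 0.058 and -0.00074 across genes. Those of differently numbered libraries ran from -0.040 to 0.045. Correlations over all genes cannot show a pairing that touches few of them. The replicate block gave 6755 calls over all genes and a limma adjusted p of 0.0462 for BMPR1A. Low values carry the largest counting error, and of the members only BMPR1B lay under the minimum mean of 10.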
